A study of Homo sapiens with 171 samples.

Results

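The 10 genes described here are known targets of the transcription factor NRF2 and were followed through cisplatin treatment of ovarian cancer cells. They were NQO1, GCLM, GCLC, SLC7A11, TXNRD1, HMOX1, SRXN1, ME1, TALDO1 and TKT, chosen as a named list of antioxidant and NADPH-related genes, 10 of the 18417 genes with a probe set of 1 symbol. Each of the 10 had a single probe set of that kind, and all 10 were tested. Levels came from Affymetrix arrays of 46 established human ovarian cancer lines. Among them were A2780cisR, a cisplatin-resistant line by its name, C13, a resistant line beside A2008, and PA-1, a teratocarcinoma line. Cisplatin binds to DNA bases and joins them to each other. It was given for 48 h at the GI50, the dose that inhibits growth of a given line to a set degree. How much was given per line was not analysed. Untreated cultures of the same 46 lines were the reference. In 18 lines (batches 1 to 3) each arm had 3 cultures, except 2 treated ones in HeyA8, and the other lines (batches 4 and 5) had 1 culture per arm. Whether numbered cultures were grown apart is not said in the labels, and p-values within a line rest only on the spread between them, which may be technical. That spread is 1 estimate per gene shared by the 18 lines, so the SE and p-value of a line are not those of its own cultures alone. All groups were transformed lines in culture, without the other cells of a tumour.

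NRF2, encoded by NFE2L2, is held at a low level by KEAP1, which marks it for degradation. When KEAP1 is modified by oxidants or electrophiles, NRF2 accumulates and, with a small MAF protein, binds the antioxidant response element of its targets. BACH1 competes for the same element. Among the targets, SLC7A11 imports cystine with its partner SLC3A2, GCLC and GCLM are the catalytic and modifier subunits of glutamate-cysteine ligase in glutathione synthesis, TXNRD1 is the cytosolic thioredoxin reductase, and SRXN1 repairs overoxidised peroxiredoxins. NQO1 reduces quinones and HMOX1 breaks down haem. TALDO1 and TKT are the transaldolase and transketolase of the pentose phosphate pathway, and ME1 is the cytosolic malic enzyme, all of which bear on the supply of NADPH. Glutathione binds platinum compounds, and high NRF2 activity is known in some ovarian cancers.

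The core of the antioxidant response element, TGACNNNGC, was searched on both strands of the RefSeq promoter windows of GRCh38.p14, which run from 250 bases before to 50 bases after a gene's start. Of the 10 genes, 8 had a window (9 windows in all). The core occurred in 4 of the 9 windows, those of GCLM, TXNRD1 (both windows) and ME1, and in 13.3% of all 35116 windows. SLC7A11 and HMOX1 had no entry, and the windows of NQO1, GCLC, SRXN1, TALDO1 and TKT did not hold these letters. The 250 bases before the start are shown for 3 windows, 5′ to 3′ on the gene's strand, with each match in capitals, because they show where these letters lie in genes that the results below describe.
GCLM, minus strand, chr1:93909431-93909680: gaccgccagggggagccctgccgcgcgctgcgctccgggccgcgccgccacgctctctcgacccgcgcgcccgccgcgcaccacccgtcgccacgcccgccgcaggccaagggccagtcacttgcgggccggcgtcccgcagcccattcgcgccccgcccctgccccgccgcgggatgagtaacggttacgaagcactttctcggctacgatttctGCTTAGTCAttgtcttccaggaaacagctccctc
TXNRD1, plus strand, chr12:104286782-104287031: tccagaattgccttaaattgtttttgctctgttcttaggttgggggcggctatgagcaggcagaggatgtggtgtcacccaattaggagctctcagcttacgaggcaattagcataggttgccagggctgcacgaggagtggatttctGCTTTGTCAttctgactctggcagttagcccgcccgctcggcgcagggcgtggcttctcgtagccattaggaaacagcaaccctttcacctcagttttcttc
ME1, minus strand, chr6:83431052-83431301: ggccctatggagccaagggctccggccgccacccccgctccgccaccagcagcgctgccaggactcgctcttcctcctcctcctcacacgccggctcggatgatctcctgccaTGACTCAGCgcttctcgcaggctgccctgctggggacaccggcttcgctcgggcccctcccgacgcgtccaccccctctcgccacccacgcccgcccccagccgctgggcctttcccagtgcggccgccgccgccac
In GCLM the match TGACTAAGC lay on the opposite strand at positions -34 to -26 from the start. In TXNRD1 the match TGACAAAGC also lay on the opposite strand, at -102 to -94, and the other TXNRD1 window held TGACTTCGC at -99 to -91 and TGACGGAGC at -8 to 1. In ME1 the match TGACTCAGC lay on the gene's own strand at -137 to -129, and TGACGGTGC followed on the opposite strand at 12 to 20. The first ME1 match overlapped the AP-1 site TGAGTCA, which was present in 4.95% of all windows and in 1 of the 9. A match is a stretch of letters and was not tested for binding.

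The 171 arrays gave 167 cultures, 82 treated and 85 untreated. OVCA433 was also treated in batch 4, and PA-1 and SKOV-3 had an untreated culture in batch 5 with no treated partner, which entered levels only. Upper quartiles of the arrays were 7.82 to 8.08 (log2) in the first 3 batches, against 5.80 to 6.59 in batches 4 and 5, so levels were compared only within a batch and changes only within a line and batch. The treated array of Hey stood apart: its values had an SD of 1.44 over genes, against 1.86 to 2.08 in the other 35 arrays of batch 5. Its differences from the untreated array had an SD of 1.12 over genes, against 0.683 in OV56, the next line. Hey was the lowest of the 46 lines in 7 of the 10 genes, so results over all lines are given with and without it. Treated culture 1 of OVCAR-10 and treated culture 3 of OVCA420 also stood apart, with a highest correlation of 0.959 and 0.982 to another culture of their line. Untreated culture 1 of A2008 came next, at 0.983, and was left out only with the other single cultures of that line and with each replicate number. In untreated lines of batches 1 to 3 the medians of the 6 epithelial markers ran between 5.79 (CDH1) and 12.3 (KRT18), with EPCAM at 7.15 and a lowest line of 2.06. Those of the 4 leukocyte markers ran between 2.93 (PTPRC) and 5.25 (CD14), of the 3 endothelial ones between 4.43 (PECAM1) and 5.93 (CDH5), and of the 4 fibroblast ones between 2.49 (LUM) and 7.08 (COL1A1). The lists overlapped in their medians, as those of CDH5, COL1A1 and COL1A2 lay above that of CDH1. They also overlapped in single lines, where PTPRC reached 9.51 and PECAM1 12.3. The highest lines of CDH5, COL1A1, COL1A2, DCN and LUM lay above the CDH1 median as well, so these markers do not separate the lists cleanly. Of the 6 epithelial markers, KRT19 fell (-0.23, limma adjusted p = 0.0420; its part in the results was not tested), and none of the 4 leukocyte, 3 endothelial or 4 fibroblast markers measured passed the test.

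Over the 46 lines, 5 of the 10 genes fell with cisplatin and none rose in the limma test at an adjusted p of 0.05. Of all 18417 genes, 9.70% passed, 4.72% lower and 4.98% higher. The 5 that fell were NQO1 and TXNRD1, both reductases, and the 3 genes that bear on NADPH, ME1, TALDO1 and TKT. The change was below 0 in 9 of the 10 genes, against 53.15% of all genes. The median change was -0.18 (log2), beside -0.01 over all genes. The falls came to between 9.54% (TXNRD1) and 18.8% (TALDO1) of the untreated level, on the array's scale.

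In NQO1 the change had a lowest value of -1.33 (SKOV-6), a median of -0.26 and a highest value of 0.29 (OVK-18), and it was lower in 34 of 46 lines. The mean was -0.28 ± 0.05 (SE; 95% interval -0.39 to -0.17; limma adjusted p = 0.000573). TALDO1 ran between -1.24 (Hey) and 0.93 (A2780cisR) with a median of -0.26, and was lower in 37 lines. Its mean was -0.30 ± 0.06 (limma adjusted p = 0.00149), so TALDO1 had the most lines in 1 direction of the 10 genes. TKT, which works beside it in the pentose phosphate pathway, ran between -2.05 (Hey) and 1.22 (A2780cisR) with a median of -0.21, and was lower in 31 lines. Its mean was -0.25 ± 0.08 (limma adjusted p = 0.0315). ME1 ran between -1.53 (Hey) and 0.88 (TOV-21G) with a median of -0.24, and was lower in 33 lines, with a mean of -0.21 ± 0.06 (limma adjusted p = 0.0185). TXNRD1 ran between -1.14 (Hey) and 0.52 (RMG-I) with a median of -0.13, and was lower in 35 lines. Its mean of -0.14 ± 0.04 (limma adjusted p = 0.0279) was the smallest of the 5. The extremes of NQO1 in SKOV-6 (3.08 treated, 4.41 untreated) and of ME1 in TOV-21G (4.14 treated, 3.26 untreated) come from low readings, not known to lie above background. In each of these genes lines lay on both sides of 0, so the fall was a shift of the mean and not shared by all lines.

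The other 5 genes did not pass. SLC7A11 had a mean change as large as that of TKT, -0.25 ± 0.14, but its lines ran between -3.14 (FU-OV-1) and 1.87 (OVCA432) around a median of -0.19 (limma adjusted p = 0.288). The 2 subunits of glutamate-cysteine ligase had means of -0.14 ± 0.07 in GCLM (adjusted p = 0.248) and -0.11 ± 0.08 in GCLC (adjusted p = 0.486). SRXN1 had -0.13 ± 0.07 (adjusted p = 0.298) and was lower in 31 lines. HMOX1 was the only one above 0, at 0.03 ± 0.06 (adjusted p = 0.823), with 22 lines higher and 24 lower, and its 95% interval was -0.10 to 0.16. These 5 intervals do not show that the genes stayed level; for SLC7A11 the interval was -0.53 to 0.03.

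Without Hey, the same 5 genes passed over the remaining 45 lines, where 12.9% of all genes did. Some lines share an origin by their names or known derivation (Hey, HeyA8 and HeyC2; DOV13, DOV13A and DOV13B; A2780 and A2780cisR; A2008 and C13), and were tested as separate lines. With these averaged to 40 families the same 5 genes passed, beside 11.5% of all genes. PA-1 and CH1 were not averaged with each other. Without both of them 5 of the 10 genes passed, beside 9.49% of all genes.

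Without Hey the means of the 5 were -0.26 in NQO1 (adjusted p = 0.000574), -0.28 in TALDO1 (0.00156), -0.18 in ME1 (0.0199), -0.12 in TXNRD1 (0.0304) and -0.21 in TKT (0.0366), all from limma. Of the other genes, SLC7A11 was at -0.19, GCLM at -0.10, SRXN1 at -0.09, GCLC at -0.05 and HMOX1 at 0.05. TKT lay close to the threshold: it did not pass without Caov-3 (-0.23, adjusted p = 0.0510) or without JHOS-2 (-0.23, 0.0517), with changes near that over all lines. No other single line left out ended a call of the 5.

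**Figure D1:**
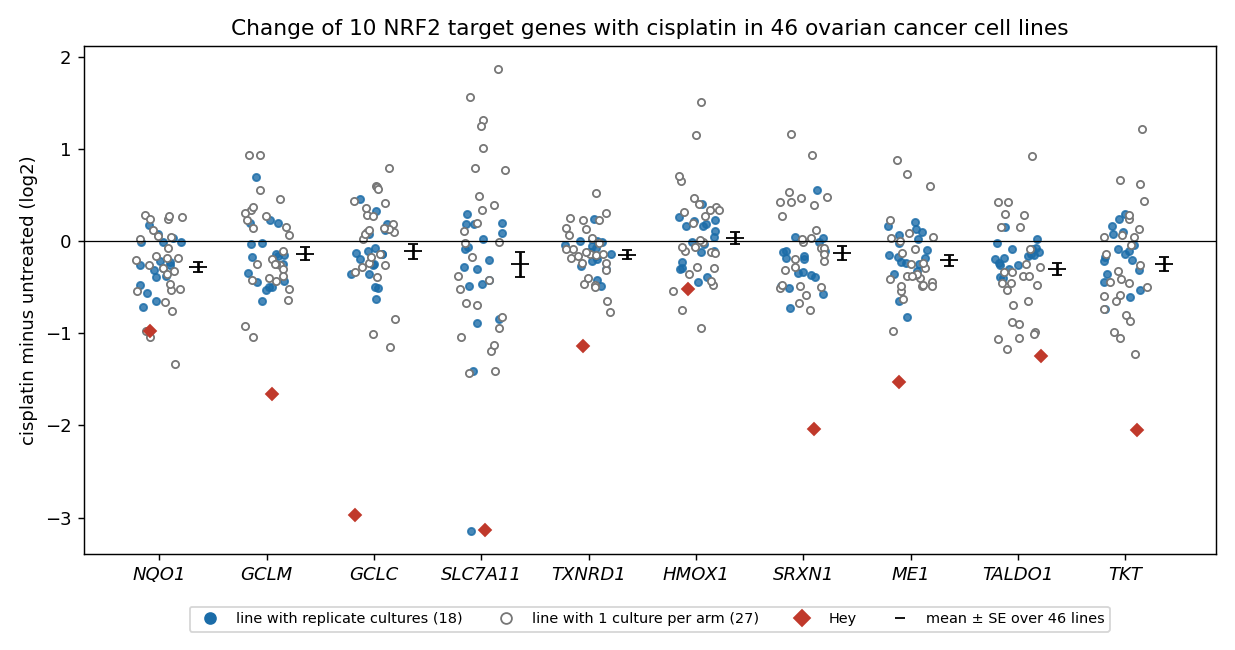
Cisplatin minus untreated (log2, y axis) of the 10 genes (x axis) in each of 46 lines, with the mean and its SE at the right of each gene. Filled points are the 18 lines with replicate cultures and open points the lines with 1 culture per arm; the red diamond is Hey, the lowest line in 7 genes, and SLC7A11 has the widest spread, between -3.14 and 1.87.

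The plot of changes by line shows how unequal the spread was. The SD of the change over lines was 0.99 in SLC7A11, larger than in 99.9% of all genes, and 0.90 without Hey, larger than in 99.8%. Without Hey and FU-OV-1 it was 0.79 over 44 lines. SLC7A11 moved by more than 1 (log2) in 13 lines, 8 of them lower and 5 higher. In OVCA432, SLC7A11 read 7.94 in the treated culture and 6.07 in the untreated one. In each of the other 9 genes between 1 and 5 lines moved that far. TXNRD1 had the smallest spread, an SD of 0.30, larger than in only 27.6% of all genes.

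Counted by line, the mean change of the 10 genes was below 0 in 36 of 46 lines. All 10 were lower in 7 lines, which were Hey, Caov-3, OVCAR-5, OVCA429, OVCA420, HeyC2 and DOV13B, and at least 8 were lower in 18. Of all genes, between 40.0% (OVCAR-8) and 57.4% (PA-1) were lower in a line. In Caov-3, the lowest after Hey, the mean of the 10 was -0.76, while 56.2% of all its genes were lower. At the other end were OVCA432, with 9 of the 10 higher and a mean of 0.44, and TOV-21G, with 8 higher and a mean of 0.36. In OVCA432 and TOV-21G 49.9% and 52.5% of all genes were lower. These lines had 1 culture per arm, so the values have no replicate check.

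None of the 9 measured regulators of NRF2 passed over all lines. NFE2L2 changed by 0.05 ± 0.04 (limma adjusted p = 0.449) and KEAP1 by 0.07 ± 0.04 (0.381). BACH1, the competitor at the element, was at 0.12 ± 0.04 and higher in 31 lines (adjusted p = 0.0785). Of 21 other NRF2 targets measured, 2 fell and none rose, a share close to the 9.70% of all genes called. They were GSR, the glutathione reductase, at -0.19 ± 0.05 (adjusted p = 0.0136), and IDH1, the cytosolic NADP-dependent isocitrate dehydrogenase, at -0.32 ± 0.08 (0.00731). The median of these 21 was -0.07. None of 11 thioredoxin, glutathione and cystine partners passed; SLC3A2, the partner of SLC7A11, was at 0.18 ± 0.09 (0.218). None of 7 pentose phosphate and NADPH partners passed either. SLC7A11 is also a target of ATF4, the factor of the integrated stress response. Of 7 genes of that response, ATF4 itself included, DDIT3, a stress-induced transcription factor, rose (0.69 ± 0.14, adjusted p = 0.000658) and the other 6 did not pass. In the 18 lines with replicate cultures the calls of these genes went both ways. Lines lower and higher numbered 7 and 0 for ATF4, 6 and 2 for CHAC1 and 6 and 4 for ASNS. They were 5 and 2 for TRIB3, 4 and 4 for PSAT1, 1 and 6 for SESN2 and 3 and 6 for DDIT3. Over all genes 3.68% of such contrasts were lower and 4.55% higher. All p-values are from limma.

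The change of none of the 10 genes differed between the 5 batches by the limma F test, with 0 calls among all 18417 genes (0%). Without adjustment, 696 genes and none of the 10 had a p under 0.05. With batches 1 to 3 set against 4 and 5 in limma, 15 genes passed and none of the 10. There 1885 genes and none of the 10 had an unadjusted p under 0.05. Within batches the means of NQO1 ran between -0.44 (batch 4, 12 lines) and -0.09 (batch 3, 5 lines), and those of TALDO1 between -0.39 (batch 5) and -0.11 (batch 3). ME1 and TKT were near 0 in batch 3, at 0.03 ± 0.16 and -0.02 ± 0.28 (SD, n = 5 lines), and ME1 was lowest in batch 4, at -0.39 ± 0.28 (SD, n = 12 lines). Fitted alone, batch 4 gave 2 calls, NQO1 and ME1, where 3.14% of all genes passed, and each other batch gave none, where 0.0109% to 0.0869% of all genes did. When a batch was left out, NQO1 and TALDO1 passed every time, while TXNRD1, ME1 and TKT each lost the call at least once: 3 genes passed without batch 1 (8.04% of all genes), 2 without batch 2 (7.10%), 5 without batch 3 (8.18%), 2 without batch 4 (3.42%) and 5 without batch 5 (9.58%). The last 5 were NQO1, TXNRD1, ME1, TALDO1 and GCLM (-0.19, adjusted p = 0.0430), with TKT not among them.

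Before treatment the 10 genes differed widely between lines. In the limma F test of untreated levels between replicated lines of the same batch, all 10 passed, as did 86.8% of all genes. The highest adjusted p among the 10 was 9.69e-28, in TALDO1. The range was widest in ME1 in batches 1 and 5, in NQO1 in batch 4 and in GCLC in batches 2 and 3. In batch 1 ME1 ran between 3.54 in TYK-nu and 11.7 in OVCA420, with PA-1 next above TYK-nu at 8.32. In batch 4 ME1 was 3.27 in SKOV-4, with the next line at 7.40, and in batch 5 OVK-18, TOV-21G and SKOV-6 had 2.57, 3.26 and 3.41 (1 culture each), with M41 next at 5.39. The SD of untreated ME1 over lines exceeded that of 96.7% of all genes in batches 1 to 3 and of 99.0% in batches 4 and 5.

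NQO1 was low in some of the same lines. It read 4.00 in SKOV-4, against 9.20 in the next line of batch 4, and 4.41 in SKOV-6, against 5.80 in RMG-I, the next of batch 5. SLC7A11 was at 5.13 in SKOV-4 and 5.88 in SKOV-6, with deviations of -2.61 and -2.65 from the batch median. The remaining genes of SKOV-4 and SKOV-6 were not uniformly low: SRXN1 lay 0.52 and 0.47 above the batch median.

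The opposite pattern was seen in OVCA420. It had the highest untreated level of the 7 lines of batch 1 in 9 of the 10 genes and lay above the batch median in all 10, by a mean of 1.84. GCLM averaged 10.75 in OVCA420, 3.09 above the median of the batch. SRXN1 was 2.97 above it, GCLC 2.57, ME1 2.47 and SLC7A11 2.25. HMOX1 was the exception, with TYK-nu at 9.33 and OVCA420 next at 8.02. In batch 5 RMG-II was highest in NQO1 (11.2), GCLC (10.2), SRXN1 (8.15) and TALDO1 (10.1), with a mean deviation of 1.00, and ME1 was 0.42 below the median there. Single genes stood out in other lines: HMOX1 was 9.60 in OV90 with CH1 next at 6.87, GCLC was 10.92 in A2008 with OVCA433 next at 9.42, and GCLC was 11.05 in C13 with OVCAR-8 next at 9.36. TYK-nu, lowest in ME1 and TKT, was second in GCLM (9.85) and SRXN1 (9.58).

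**Figure D2:**
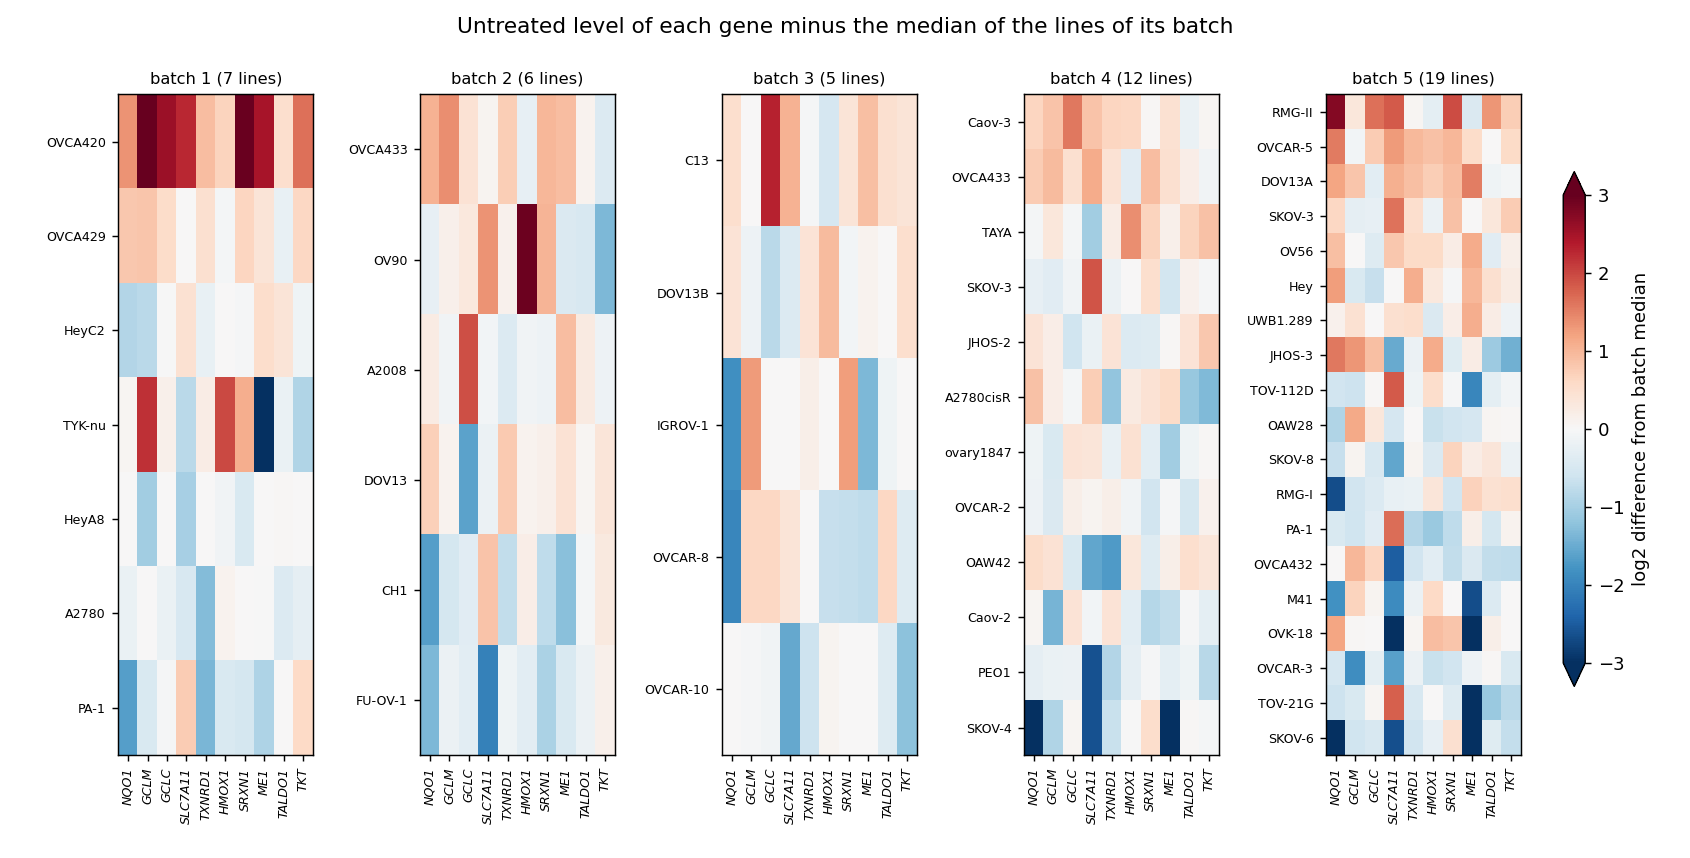
Untreated level of each gene (columns) in each line (rows) minus the median of the lines of its batch (log2, colour, limited at -3 and 3), for the 5 batches. OVCA420 in batch 1 and RMG-II in batch 5 are the top rows, with mean deviations of 1.84 and 1.00, and SKOV-4 and SKOV-6 are the bottom ones, at -1.43 and -1.39.

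The order of lines was partly resolved by the cultures. Of the 15 neighbours in the orders of batches 1 to 3, the ranges of the cultures overlapped in 3 for NQO1, in 4 for SLC7A11 and TXNRD1, in 5 for SRXN1, ME1 and TKT, in 6 for GCLM and GCLC, in 7 for TALDO1 and in 8 for HMOX1. No such count over all genes is given, and 86.8% of all genes differed between untreated lines, so the separation is not particular to these genes. Untreated OVCA433, PA-1 and SKOV-3 were measured in 2 batches. OVCA433 lay on the same side of the batch median in both batches for all 10 genes, PA-1 for 8 and SKOV-3 for 5. SLC7A11 in SKOV-3 was 1.90 above the median in batch 4 and 1.64 above it in batch 5. The medians are of different sets of lines, so the signs compare the line with its batch and not with itself.

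In the 18 lines with replicate cultures, 49 of 180 contrasts of the 10 genes passed, 44 lower and 5 higher. Over all genes 8.23% of such contrasts passed, 3.68% lower and 4.55% higher. NQO1 and SRXN1 fell in 8 lines each, GCLM and TALDO1 in 5, SLC7A11, ME1 and TKT in 4, GCLC in 3, TXNRD1 in 2 and HMOX1 in 1. The 5 contrasts that rose were 4 in FU-OV-1 and GCLC in PA-1. The contrast was below 0 in 135 of the 180, and no such share over all genes is given. By the limma F test, the change differed between lines in 9 of the 10 genes, against 51.0% of all genes. The lowest adjusted p was 5.39e-23, in SLC7A11, and TXNRD1 did not pass (0.0644).

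**Figure D3:**
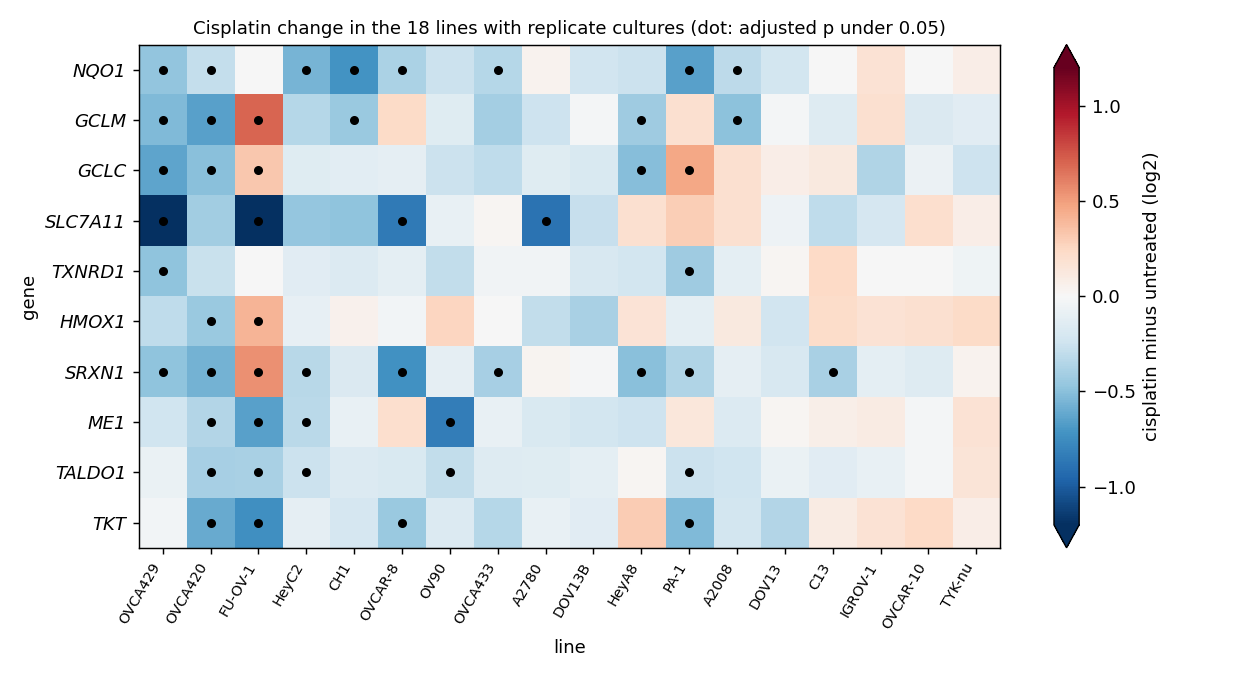
Cisplatin minus untreated (log2, colour, limited at -1.2 and 1.2) of the 10 genes (rows) in the 18 lines with replicate cultures (columns, ordered by the mean over the genes); a dot marks a limma adjusted p under 0.05. Of the 49 dots, 44 are falls, and 4 of the 5 rises are in FU-OV-1.

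The calls are read against the share of all genes that passed in the same line. In OVCA420 8 genes fell, where 4.53% of all genes fell, 6.96% rose and 11.5% passed. In FU-OV-1 4 fell and 4 rose, where 10.5% of all genes fell, 17.3% rose and 27.8% passed. In OVCA429 6 fell, beside 1.66% lower, 2.25% higher and 3.90% in all. In PA-1 5 fell and 1 rose, beside 10.8% lower, 12.0% higher and 22.8% in all. OVCA420 and OVCA429 thus had most of the 10 genes lower. The share of all genes lower was small in OVCA429, while in OVCA420 it was above the 3.68% of all such contrasts. PA-1 and FU-OV-1 had large shares of all genes called. In HeyC2 4 fell (2.30% of all genes lower, 2.83% higher, 5.13% in all), and in OVCAR-8 4 fell (4.30%, 9.12% and 13.4%). In HeyA8 3 fell (7.80%, 5.89% and 13.7%). These 3 lines had calls in the lower direction only.

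In CH1 2 genes fell (0.527% of all genes lower, 1.45% higher, 1.98% in all), in OV90 2 (1.80%, 1.12% and 2.92%), in A2008 2 (3.39%, 1.76% and 5.15%) and in OVCA433 2 (1.83%, 0.852% and 2.68%). In A2780 1 fell (1.82%, 1.72% and 3.53%) and in C13 1 (7.34%, 10.3% and 17.7%). None passed in 5 lines. The shares of all genes lower, higher and in all were 0.0217%, 0.0543% and 0.0760% in TYK-nu, 0.668%, 2.64% and 3.31% in DOV13, and 1.25%, 2.93% and 4.18% in OVCAR-10. They were 0.424%, 1.03% and 1.46% in DOV13B and 5.27%, 1.69% and 6.96% in IGROV-1. In DOV13B all 10 genes were below 0, with a mean of -0.18.

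SLC7A11, the cystine importer, had the largest single fall. In FU-OV-1 its treated cultures read 4.50, 5.45 and 4.63, against 8.19, 7.83 and 7.99 untreated. The groups did not overlap, with SDs of 0.52 treated and 0.18 untreated. The change was -3.14 ± 0.15 (SE from the spread shared by the 18 lines, limma adjusted p = 9.68e-30), at least 8.83-fold lower with cisplatin. It is given as a bound because these values do not tell whether the treated readings lay above the array's background. In OVCA429 the treated cultures read 8.60, 8.78 and 8.72, against 10.03, 9.995 and 10.30 untreated, a change of -1.41 ± 0.15 (limma adjusted p = 1.02e-10). In A2780 they read 8.71, 8.80 and 8.73, against 9.58, 9.62 and 9.69 untreated (-0.89, limma adjusted p = 2.86e-05). In OVCAR-8 they read 10.14, 10.11 and 9.93, against 10.95, 10.80 and 10.97 untreated (-0.85, limma adjusted p = 2.17e-05). All 4 falls had no overlap between arms, but neither had falls without a call, such as those in HeyC2 (-0.46) and IGROV-1 (-0.21). The lack of overlap thus does not set the calls apart. In the other 14 lines SLC7A11 did not pass; its highest value among the 18 was 0.30, in PA-1. FU-OV-1 had the lowest untreated SLC7A11 of batch 2. SLC3A2, the partner chain, fell in 4 of the 18 lines and rose in none.

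FU-OV-1 was the line in which the genes moved apart. GCLM read 7.86, 8.19 and 8.26 in the treated cultures and 7.45, 7.24 and 7.52 in the untreated ones, a rise of 0.70 ± 0.12 (SE, limma adjusted p = 3.50e-06). SRXN1 rose by 0.55 ± 0.10 (1.46e-05), with treated cultures at 7.91, 8.20 and 7.93 and untreated ones at 7.42, 7.36 and 7.60. HMOX1 rose by 0.41 ± 0.11 (0.00345) and GCLC by 0.33 ± 0.12 (0.0308). The GCLC call was lost on leaving out each of 4 of the 6 cultures in turn. So the ligase subunits, sulfiredoxin and haem oxygenase were higher while the cystine importer was lower. TKT fell by 0.74 ± 0.11 (limma adjusted p = 1.48e-07), reading 10.10, 10.24 and 10.23 in treated cultures and 10.91, 10.88 and 10.99 in untreated ones. ME1 fell by 0.65 ± 0.10 (8.57e-08) and TALDO1 by 0.39 ± 0.08 (5.66e-05). NQO1 and TXNRD1 did not pass. FU-OV-1 was also the line with the largest share of all genes called. The changes of the regulators KEAP1 (0.91), BACH1 (0.46), MAFG (1.08) and SQSTM1 (0.92) in FU-OV-1 were each the highest of the 18 lines. The other measured regulators were highest elsewhere. These were NFE2L2 in PA-1 (0.39), NFE2L1 in HeyA8 (0.24), CUL3 in DOV13 (0.13), RBX1 in A2780 (0.38) and MAFF in DOV13B (0.54). No share of all genes that were highest in FU-OV-1 is given, and a part of the regulators was not tested.

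In OVCA420, the line with the highest untreated levels, 8 genes fell and none rose. GCLM read 10.01, 10.31 and 9.99 in treated cultures and 11.02, 10.59 and 10.65 in untreated ones, a change of -0.65 ± 0.12 (limma adjusted p = 6.00e-05). TKT changed by -0.60 ± 0.11 (5.00e-05), SRXN1 by -0.57 ± 0.10 (3.45e-05), GCLC by -0.50 ± 0.12 (0.00186), HMOX1 by -0.45 ± 0.11 (0.00355) and TALDO1 by -0.40 ± 0.08 (0.000144). For SRXN1 the treated cultures were still above the untreated ones of the next lines: SRXN1 averaged 10.9 in them, against 9.12 in the untreated cultures of OVCA429 and 9.58 in those of TYK-nu. ME1 (-0.36) and NQO1 (-0.29) passed with all cultures. Without treated culture 3, which stood apart, NQO1 had an adjusted p of 0.102 and ME1 of 0.0515. NQO1 was also lost without 4 of the other 5 cultures (0.0516 to 0.0814), and ME1 without untreated culture 1 (0.116).

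In OVCA429, 6 genes fell and none rose. SLC7A11 is given above. GCLC read 8.34, 8.34 and 8.59 in treated cultures and 8.91, 9.03 and 9.22 in untreated ones (-0.63 ± 0.12, limma adjusted p = 0.000197). SRXN1 (-0.48, 0.00152) and NQO1 (-0.48, 0.000222) fell as well. GCLM (-0.53) and TXNRD1 (-0.48) did not pass without untreated culture 3 (adjusted p = 0.0759) or untreated culture 1 (0.0544).

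**Figure D4:**
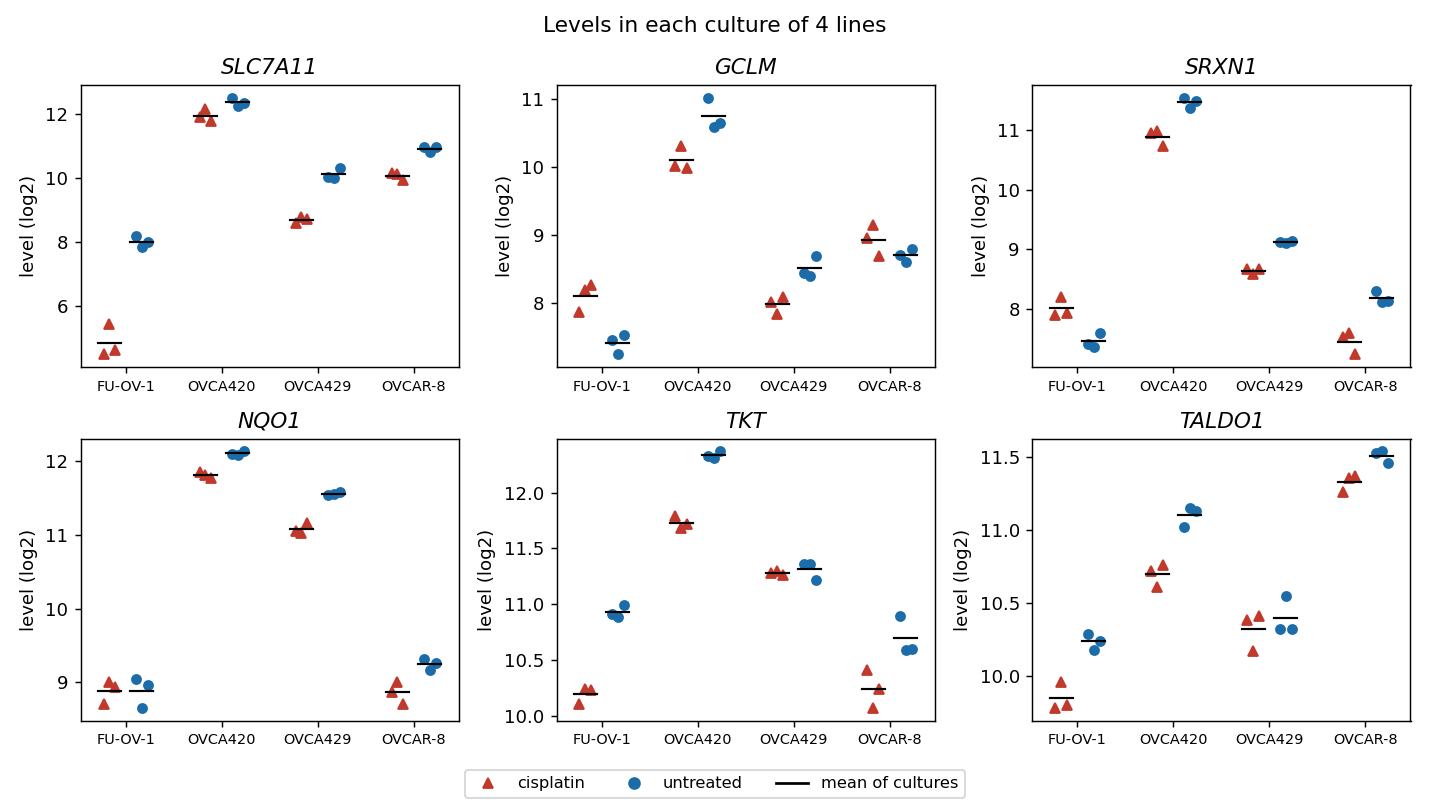
Level (log2, y axis) of 6 genes in each treated (triangles) and untreated (circles) culture of FU-OV-1, OVCA420, OVCA429 and OVCAR-8, with bars at the means. GCLM and SRXN1 are higher with cisplatin in FU-OV-1 and lower in OVCA420 and OVCA429, while SLC7A11 in FU-OV-1 shows the widest gap, a change of -3.14.

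NQO1, the quinone reductase, fell most in CH1, where treated cultures read 8.02, 7.86 and 7.75, against 8.48, 8.79 and 8.50 untreated (-0.71 ± 0.09, limma adjusted p = 1.44e-08). In PA-1 NQO1 read 8.56, 8.39 and 8.37 in treated cultures and 8.92, 9.07 and 9.27 in untreated ones (-0.65 ± 0.09, 1.93e-07). In HeyC2 it changed by -0.56 ± 0.09 (1.04e-05), in OVCAR-8 by -0.38 ± 0.09 (0.00160) and in OVCA433 by -0.345 ± 0.09 (0.0177). In none of these lines did the arms overlap, nor did they in lines without a call for NQO1, such as OV90 (-0.26) and DOV13 (-0.22). SRXN1, the sulfiredoxin, fell most in OVCAR-8 (-0.73 ± 0.10, limma adjusted p = 1.24e-07) and also in HeyA8 (-0.50, 0.00100), C13 (-0.39, 0.00530) and OVCA433 (-0.40, 0.01625). ME1 fell most in OV90, where treated cultures read 7.77, 7.74 and 7.68, against 8.51, 8.51 and 8.65 untreated (-0.83 ± 0.10, limma adjusted p = 1.08e-09). PA-1 was mixed in another way than FU-OV-1: TKT fell by 0.53 ± 0.11 (limma adjusted p = 0.000297), and GCLC rose by 0.46 ± 0.12 (0.00271).

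Several calls were lost when 1 culture was left out, which also leaves fewer cultures in the fit. Cultures were left out singly in 10 lines, which hold 45 of the 49 calls. Of the 45, 26 held whichever culture of the line was left out, and 19 were lost at least once. GCLC in PA-1 did not pass without treated culture 3 (limma adjusted p = 0.0650), TXNRD1 there without treated culture 2 (0.0620) or untreated culture 2 (0.0528), and SRXN1 there without treated culture 3 (0.158) or 2 (0.0519). TALDO1 in PA-1 did not pass without untreated culture 3 (0.0962), treated culture 2 (0.0749) or treated culture 3 (0.0725). The change itself often moved little: TALDO1 in HeyC2 lost the call whichever culture was left out, with changes of -0.28 to -0.24 against -0.26. Among the lost calls it moved most for NQO1 in A2008, to -0.16 without untreated culture 2, against -0.31 with all cultures. In HeyC2 the calls of SRXN1, ME1 and TALDO1 were lost without treated culture 1 (0.238, 0.205 and 0.156) among others. In HeyA8, GCLM was lost without untreated culture 1 (0.129) or 2 (0.1245). Leaving out treated culture 3 there left 1 treated culture, with changes of -0.31 in GCLM and -0.45 in GCLC. In CH1, GCLM was lost on leaving out each of 4 of the 6 cultures in turn, with the highest adjusted p without untreated culture 2 (0.428). NQO1 in A2008 was lost in the same way with 4 of the 6, highest without untreated culture 2 (0.433). GCLM in A2008 was lost without treated culture 2 (0.128) or untreated culture 1 (0.0755). TALDO1 in OV90 was lost with each of 3 of the 6 left out in turn, highest without treated culture 1 (0.224). TKT in OVCAR-8 was lost without untreated culture 1 (0.0551). GCLC in FU-OV-1 was lost with each of 4 of the 6 left out in turn, highest without treated culture 2 (0.146).

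The genes varied together to a limited degree. Over 45 lines without Hey, the median of the 45 pairwise correlations (Pearson r) was 0.27 for untreated levels and 0.17 for the change, beside -0.02 and 0.01 between these genes and all others. With Hey the median for the change was 0.31. The values share arrays within a line, and they are given as a description. TALDO1 and TKT were the closest pair in both, with r = 0.66 for untreated levels and 0.72 for the change without Hey (0.75 with it). For the change the r of this pair was 0.77 in batches 1 to 3 (18 lines) and 0.76 in batches 4 and 5 (28 lines). For untreated levels it was 0.48 and 0.80, and in batches 1 to 3 GCLM and SRXN1 were the closest pair instead. TKT was nevertheless the 65th closest of 18416 genes to TALDO1 by the change. GCLM and SRXN1 followed for untreated levels (0.56 over 45 lines, 0.84 in batches 1 to 3 and 0.17 in batches 4 and 5), and HMOX1 with SRXN1 (0.51) and GCLM with GCLC (0.49) for the change. GCLM and TKT ran against each other in the change, at -0.46 without Hey and -0.12 with it.

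**Figure D5:**
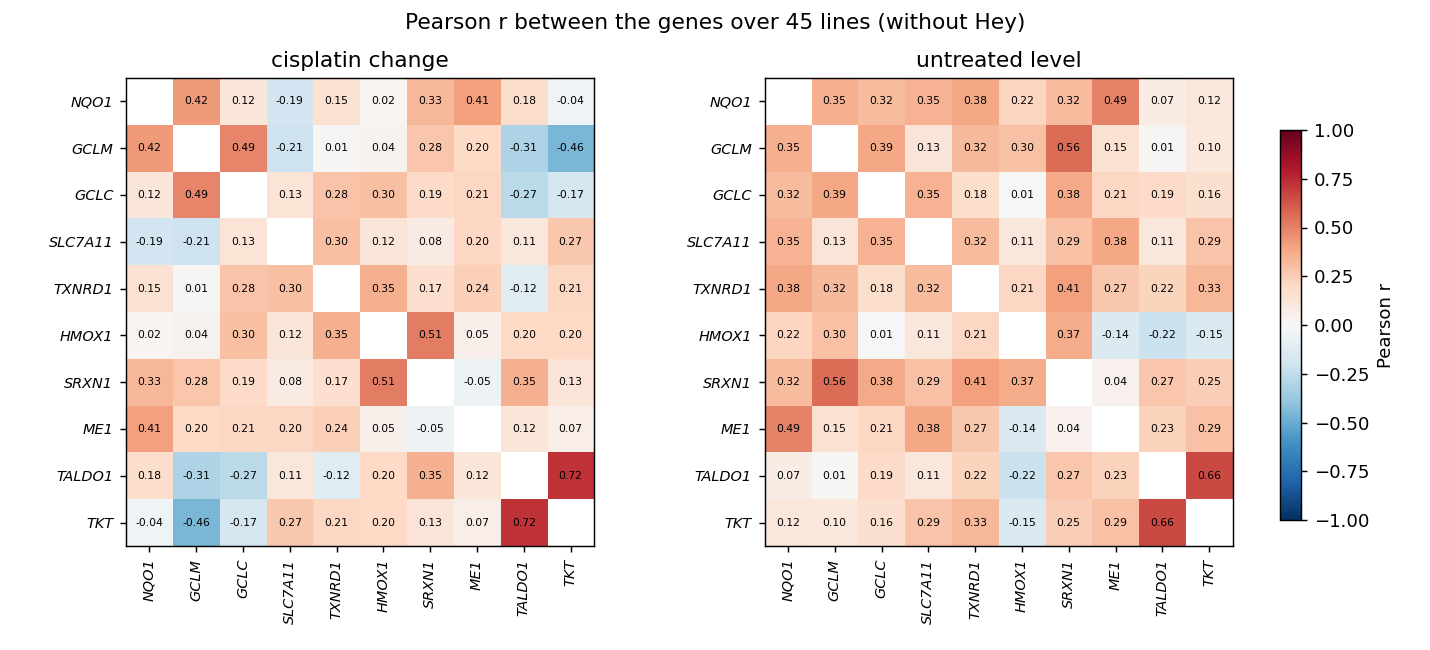
Pearson r between the 10 genes over 45 lines without Hey, for the cisplatin change (left) and the untreated level relative to the batch median (right). TALDO1 and TKT have the highest r in both panels (0.72 and 0.66), and GCLM with TKT has the lowest in the left panel (-0.46).

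The gene outside the 10 whose change was most like their mean, each gene divided by its SD, was GSR, with r = 0.65 over 45 lines without Hey and 0.84 over 46 lines. KIAA0319, EPHX1, PLD2 and CCND3 followed without Hey (0.54 to 0.57), and RHNO1, BLTP2, SKP2 and LOC100130331 with it (0.76 to 0.80). For untreated levels the closest were NMRAL2P (0.75), ABCC3 (0.73), PLAAT2 (0.71), ITGB4 (0.66) and TRIM15 (0.65) over 46 lines. In batches 1 to 3 they were ANKRD20A5P, CYP4F3, KPNA7, DHRS9 and OSGIN1 (0.86 to 0.88, 18 lines), and in batches 4 and 5 CD151, NMRAL2P, CAPN2, BIN1 and PTPRE (0.73 to 0.76, 28 lines). For the change the sets also differed: ADAMTSL1, CST8, CBR3, KRTAP3-2 and NPBWR2 in batches 1 to 3 (0.70 to 0.73), and RHNO1, GSR, AURKB, LOC100130331 and SKP2 in batches 4 and 5 (0.84 to 0.86). GSR, ABCC3, EPHX1 and OSGIN1 were on the list of other NRF2 targets. NFE2L2 itself had an untreated r above 0.3 with 3 of the 10 genes, NQO1 (0.47), TXNRD1 (0.39) and SRXN1 (0.33), over 46 lines.

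A high untreated level did not go with a larger fall in every gene. To keep the 2 measures apart, the level came from 1 untreated culture and the change from the others of the same line, over the 18 replicated lines. For ME1 r ran between -0.35 and -0.30 over the 3 choices of culture and for TKT between -0.39 and -0.35. For NQO1 it ran between 0.12 and 0.16, and for SLC7A11 between 0.30 and 0.35, where Spearman's rho was between -0.12 and -0.04. FU-OV-1 had both the lowest SLC7A11 level of its batch and the largest fall. For TALDO1 r ran between -0.28 and -0.13, for SRXN1 between -0.26 and -0.20 and for GCLM between -0.24 and -0.13. For GCLC it ran between -0.12 and -0.06, for TXNRD1 between -0.0005 and 0.14 and for HMOX1 between 0.08 and 0.15. These r values rest on 18 lines of 3 batches and are descriptions only.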

How the data were processed

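The authors deposited log2 expression values of 171 Affymetrix arrays, for which the submitters' processing notes name RMA; its version is not given in the sources used here. Of 33297 probe sets, 19460 carried 1 gene symbol and were reduced to 18417 genes by the highest mean over all arrays, while 1754 with several symbols and 12083 with none were left out. Repeat arrays (4) were averaged into 167 cultures. Cisplatin minus untreated was taken within line and batch and averaged over batches, and limma 3.58.1 (R 4.3.3) tested the 46 line differences, contrasts within 18 lines (107 cultures, 71 residual degrees of freedom) and F tests between lines and batches. P-values were Benjamini-Hochberg adjusted over all 18417 genes, with a threshold of 0.05; the steps were tested on simulated data. All 10 genes were part of every comparison, but not every value is printed. Means within batches and pairwise r, for example, are given for some of them. Of the other lists, genes past the threshold over all lines are named, with NFE2L2, KEAP1, BACH1 and SLC3A2 in any case. MAFG and SQSTM1 are named for FU-OV-1 in addition, with the other regulators beside them. The genes of the ATF4 response are also named for their calls in the replicated lines. Genes and lists were chosen with earlier results of these data known. Leaving out Hey was chosen after seeing the data. The number of arrays limits the precision.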

Additional observations from a re-analysis of the deposited data

Results flagged for a closer look

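In batches 1 to 3, 60 sets of 5 to 7 lines were tested for a line far from the others, and 7 had one. The test is set to flag about 1 in 20 sets by chance. No count of flagged sets over all genes is given. Of all genes, 86.8% differed between untreated lines and 27.8% were called in FU-OV-1. The flags are thus not shown to be particular to these 10 genes. Untreated GCLC stood apart in OVCA420 (11.08), GCLM in OVCA433 (8.959), HMOX1 in OV90 (9.602) and ME1 in TYK-nu (3.543), where it was the lowest. The cisplatin change stood apart in FU-OV-1 for SLC7A11 (-3.142), SRXN1 (0.552) and TKT (-0.74).

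The cisplatin change differed between the 18 lines with replicate cultures in 9 of the 10 genes by the limma F test. The adjusted p was 2.29e-09 for NQO1, 6.24e-09 for GCLM, 5.80e-07 for GCLC, 5.39e-23 for SLC7A11 and 9.05e-06 for HMOX1. It was 3.32e-09 for SRXN1, 1.80e-09 for ME1, 0.00222 for TALDO1 and 6.55e-08 for TKT.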

How the results depend on the processing

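Over all lines 5 of the 10 genes passed, and 9 did with all cultures weighted equally (22.8% of all genes), 7 with limma array weights (14.4%), 2 with batches weighted equally (3.46%), 3 without batch 1 (8.04%), 2 without batch 2 (7.10%) and 2 without batch 4 (3.42%). Single batches gave 0 (batch 1), 0 (batch 2), 0 (batch 3), 2 (batch 4, 3.14%) and 0 (batch 5), on fewer lines. The lines with replicate cultures alone gave 3 (7.25%), NQO1, TALDO1 and SRXN1, the last of which is not among the 5. Those with 1 culture per arm gave 2 (5.36%), NQO1 and TALDO1, and a minimum change of 1.2-fold gave 0 (0.0326%). Leaving out each line gave 4 to 5. ME1 was above 0 in batch 3 alone (0.02597, limma adjusted p = 0.967). Of the line contrasts, 49 passed (8.23% of all contrasts). With each line fitted alone 27 did (4.51%), and with the 1.2-fold minimum 12 (1.44%). Leaving out replicate 1, 2 or 3 gave 25 to 44, and single cultures 46 to 53. The genes whose change differed between lines numbered 8 to 10 without a replicate. Cultures with the same number did not deviate together (7 of 53 pairs had a correlation over 0.1, and in 0 lines did every pair). With the replicate block 42 contrasts passed (6.99% of all contrasts), 41 of them among the 49, and the change differed between lines in 9 genes. In single lines the block left 1 called gene in HeyC2, 1 in OV90 and 1 in A2008. The runs without a line, replicate or culture, the block's test between lines and its single-line counts are given without shares of all genes. Losses there are thus not shown to be particular to these genes. No called contrast changed sign in any alternative run, and 12 of the 49 passed in all of them.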
